A study of Mus musculus with 6 samples.

Results

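Serpins are a large family of proteins with a shared fold, most of which inhibit proteases. They were followed on 42 of the 22626 tested probe sets of a one-colour Affymetrix array, chosen because their annotated symbol names a serpin gene of clades A to I. A probe set is a group of short probes that reads a transcript. The 42 probe sets named 36 mouse serpin genes, of 13319 genes named on the array. Of these probe sets 39 named a single gene, 30 genes in all, and 3 were shared by several genes, which left 6 genes with no probe set of their own. The samples were livers of 3 PiZ mice and 3 wild-type mice, 6 weeks old and of the C57BL/6 strain, with 1 array per mouse. PiZ mice are transgenic for the Z form of human alpha-1 antitrypsin, itself a serpin, and keep their own mouse serpin genes. The transgene was not analysed here, since the annotation ties no probe set to the human gene. The sex of the mice and whether the groups were littermates are not given in the labels. The values are log2 intensities, so that a difference of 1 is 2-fold, and differences are PiZ minus wild-type from limma with their standard errors (SE). A probe set is called changed at an adjusted p below 0.05 over all 22626 probe sets, and n = 3 per group throughout.

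An inhibitory serpin offers an exposed loop to its target protease. When the protease cuts the loop, the serpin changes shape and traps the enzyme in an inactive complex. The same mobile fold makes serpins prone to joining into polymers when mutated, and the Z form of alpha-1 antitrypsin is the best known example. Liver is the main source of the serpins of blood plasma, such as alpha-1 antitrypsin, antithrombin and the C1 inhibitor. Clade B serpins lack the usual secretion signal and act mostly inside cells, and a few family members carry hormones or assist protein folding instead of inhibiting a protease.

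The mouse alpha-1 antitrypsin genes Serpina1a to Serpina1e are neighbouring near-copies of one another, which bears on what a probe set can tell apart. Stretches of 100 bases upstream of their transcription starts are shown, all cut at the same distance from a shared motif. They make the likeness of the upstream sequence visible, not that of the transcripts which probes read. The stretches are RefSeq sequences of build GRCm38.p6 on the minus strand, written 5′ to 3′. The motif GTTAAT, a core of HNF1 binding sites, is in capitals.
Serpina1a, chr12:103863625-103863724: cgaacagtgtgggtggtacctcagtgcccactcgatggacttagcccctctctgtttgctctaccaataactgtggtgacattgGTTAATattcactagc
Serpina1b, chr12:103738200-103738299: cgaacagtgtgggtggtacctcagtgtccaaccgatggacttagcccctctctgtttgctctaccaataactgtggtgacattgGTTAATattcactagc
Serpina1c, chr12:103904962-103905061: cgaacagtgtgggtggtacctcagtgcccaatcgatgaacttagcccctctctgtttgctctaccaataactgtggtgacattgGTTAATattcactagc
Serpina1d, chr12:103773634-103773733: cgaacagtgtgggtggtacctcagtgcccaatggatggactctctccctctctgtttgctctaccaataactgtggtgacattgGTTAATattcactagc
Serpina1e, chr12:103956960-103957059: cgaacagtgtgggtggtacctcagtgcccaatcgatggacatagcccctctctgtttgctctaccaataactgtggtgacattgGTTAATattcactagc
Between any pair of these stretches 93.0% to 98.0% of aligned bases were identical. The motif began 16 to 27 bases before the RefSeq start in Serpina1a to Serpina1d, and 78 bases before it in Serpina1e.

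Upstream sequence was found in the RefSeq table for 32 of the 36 serpin genes, with 35 start sites. The motif GTTAAT, searched on both strands of the 250 bases before each start, occurred at 7 of the 35 serpin start sites (20.0%) and at 6.43% of all 32851 start sites. The 5 Serpina1 copies made up 5 of those 7, and they share their sequence, so they are not independent cases. The motif TGATGNAA, a form of the C/EBP-ATF composite site through which the amino acid and ER stress response acts, occurred at 4 serpin start sites (11.4%) and at 3.45% of all. Of the called serpins with upstream sequence in the table, which did not hold Serping1, Serpinf1 had it, in the stretch shown for that reason, again from the minus strand of GRCm38.p6 and with the motif in capitals.
Serpinf1, chr11:75422637-75422736: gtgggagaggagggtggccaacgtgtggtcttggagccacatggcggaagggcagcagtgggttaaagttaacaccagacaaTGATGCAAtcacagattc
The motif CAAAGTCCA of HNF4 was in 0 of the 35 serpin stretches and in 0.384% of all. These matches describe letters in a window and not binding.

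PiZ replicate 1 stood closer to wild-type than PiZ replicates 2 and 3 did. Across all probe sets it correlated with the wild-type arrays at 0.981 to 0.983, against 0.962 to 0.970 for PiZ replicates 2 and 3. The difference between the 3′ and 5′ ends of the control transcript Gapdh, which grows when RNA is shortened, was 1.99, 4.39 and 4.01 in PiZ replicates 1, 2 and 3, and 1.49 to 2.06 in wild-type. The hepatocyte markers were bright in both groups, with albumin (Alb) at 14.63 to 14.89 in PiZ and 14.92 to 14.96 in wild-type. Of the 8 hepatocyte markers Tat was higher (1.12) and Fga lower (-0.64) in PiZ, and 5 had an unadjusted p below 0.05. A mean level over all 8 lay between 13.65 and 14.01 in PiZ and between 13.86 and 13.91 in wild-type. Values of PiZ replicate 1 and of PiZ replicates 2 and 3 are therefore given apart below. Fits with the 3′ minus 5′ signal in the model lean on PiZ replicate 1, since that signal sets PiZ replicates 2 and 3 apart from the other arrays. Such fits are not evidence separate from PiZ replicate 1. They cannot tell RNA quality from another difference between the PiZ mice. In whole liver, fewer cells of a type and less RNA per cell cannot be told apart.

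Serpins secreted by liver were mostly lower in PiZ where they changed, and an intracellular serpin, Serpinb6a, was higher. Of the 42 serpin probe sets 8 were lower and 2 higher in PiZ by limma, 19.0% and 4.76%, where 10.2% of all probe sets were lower and 8.93% higher (19.1% in either direction). The groups did not overlap for 12 serpin probe sets with PiZ lower (28.6%) and for 5 with PiZ higher (11.9%), where 18.6% and 23.4% of all probe sets did not. The lower ones named Serpina12, Serpinf1 (on 2 probe sets), Serpinf2, Serping1, Serpind1 and, on shared probe sets, the Serpina1 copies. The higher ones named Serpinb6a and Serpinb5. The median difference over all 42 was 0.04, against 0.08 over all probe sets, and it read -0.03 once arrays were scaled by cyclic loess and -0.01 with quantile normalization repeated. The lower calls lay in clades A, D, F and G and the higher ones in clade B. Clade B as a whole was not set apart, since 2 of its 19 probe sets were higher (10.5%), near the 8.93% of all probe sets. Of these, Serpinb5 was dim and lost its call in 12 of 17 alternatives. Most clade B probe sets were dim too, with a median wild-type level of 3.46. At wild-type means of 2 to 4 only 0.304% of all probe sets were lower, so a lack of lower calls there says little.

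**Figure D1:**
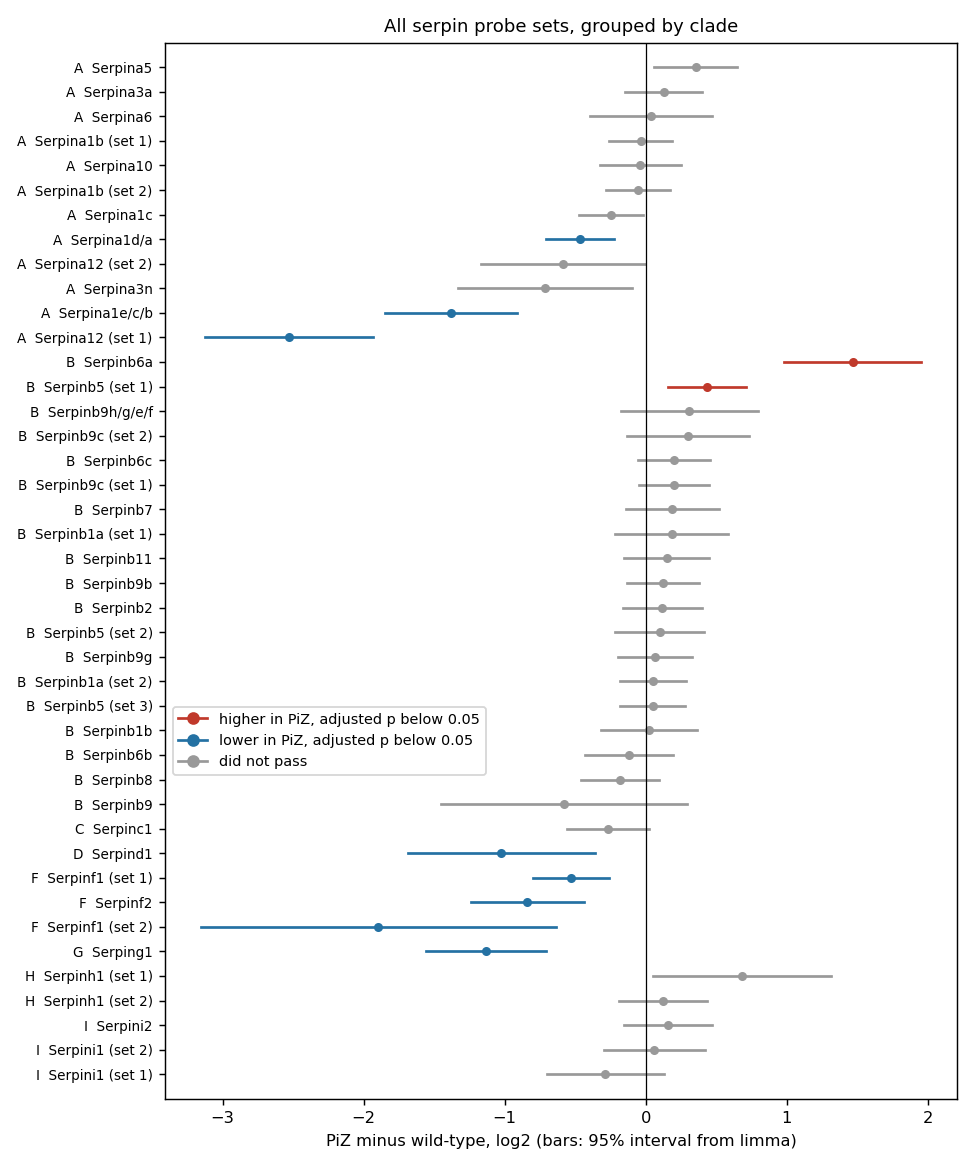
Difference between PiZ and wild-type liver (log2, horizontal axis) for all 42 serpin probe sets, with letters for the clade, points for limma estimates and bars for their 95% intervals. Blue points, lower in PiZ, lie in clades A, D, F and G, and the 2 red points, higher in PiZ, in clade B.

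The bright serpin probe sets were mainly those of plasma serpins, with Serpinb6a and Serpinh1 beside them. Of the 42 probe sets 18 read above the median of all probe sets in both groups. Among those 18, 8 were lower and 1 was higher in PiZ (44.4% and 5.56%), where 16.5% of all probe sets above the median in both groups were lower, 11.5% higher and 27.9% changed in either direction. Most of those are dimmer than these serpins, with a median level of 8.25 in PiZ and 8.37 in wild-type, against 11.25 in PiZ and 11.81 in wild-type for the 18. Nearer to the serpins' own level the share of lower calls was larger. With a wild-type mean between 10 and 12, 3 of 4 serpin probe sets and 23.9% of all probe sets were lower, and between 12 and 14 it was 3 of 4 and 23.4%. The median of the 18 was -0.37, against -0.07 for all such probe sets, and it stayed between -0.47 and -0.16 in every alternative refit. The groups did not overlap for 11 of the 18 with PiZ lower (61.1%), against 29.5% of all bright probe sets, and for 1 with PiZ higher (5.56%), against 21.6%. Of the 24 dimmer serpin probe sets 0 were lower and 1 was higher by limma, with 3 at an unadjusted p below 0.05, where 4.61% and 6.66% of all probe sets outside the bright class were. The rule itself leaves out serpins that fell below the median: Serpinb9, at 6.16 in PiZ against a median of 6.17 for all probe sets, lay just outside it, and the dimmer of the Serpinh1 probe sets, at 6.94, just inside.

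**Figure D2:**
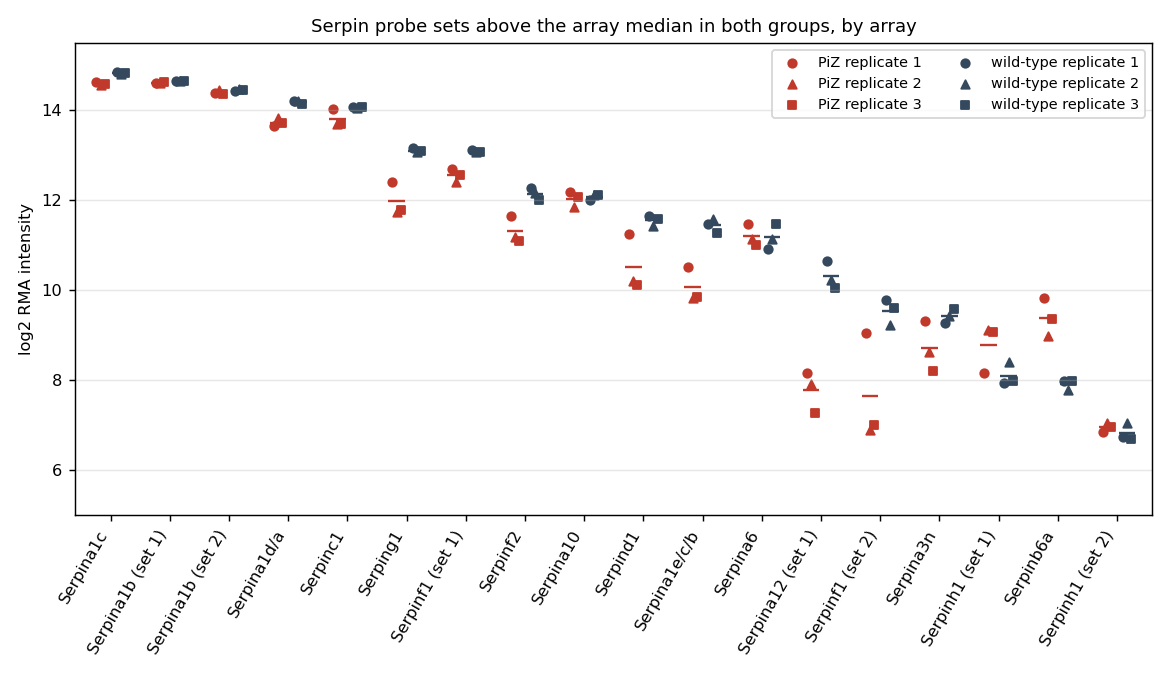
Log2 RMA intensity (vertical axis) of the 18 serpin probe sets above the array median in both groups, with 1 symbol per array, PiZ in red on the left and wild-type in blue on the right of each name, and a line at each group mean. Where a gene has several probe sets, set 1 is the brighter. Serpina12 shows the widest fall (7.78 against 10.31) and Serpinb6a the only rise that passed (9.38 against 7.91), while Serpina1b and Serpina1c sit near the top of the scale.

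Alpha-1 antitrypsin, made from the Serpina1 genes, protects tissue from neutrophil elastase. Its probe sets disagreed in size. Serpina1c read 14.62, 14.56 and 14.57 in PiZ replicates 1, 2 and 3, against 14.85, 14.81 and 14.83 in wild-type. The groups did not overlap, and the difference of -0.25 (SE 0.10, 95% interval -0.47 to -0.02) had an adjusted p = 0.108. Serpina1b read 14.61, 14.61 and 14.61 in PiZ, against 14.64, 14.66 and 14.65 in wild-type, on its brighter probe set. That difference of -0.04 (SE 0.10, 95% interval -0.26 to 0.19) did not pass, and it read 0.09 with cyclic loess, and 0.11 when quantile normalization was repeated. The other Serpina1b probe set differed by -0.06 (SE 0.10), and by 0.07 and 0.04 under those settings.

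Probe sets shared between Serpina1 copies fell. The one for Serpina1d and Serpina1a read 13.64, 13.82 and 13.71 in PiZ, against 14.21, 14.21 and 14.14 in wild-type. Every PiZ array lay below every wild-type array, 1.38-fold lower on average (-0.47, SE 0.10, adjusted p = 0.0225). The one for Serpina1e, Serpina1c and Serpina1b read 10.50, 9.82 and 9.85 in PiZ, against 11.47, 11.58 and 11.26 in wild-type. It fell 2.60-fold (-1.38, SE 0.20, adjusted p = 0.00592), and its difference was -0.94 in PiZ replicate 1 and -1.60 over the other PiZ arrays. Of the genes on it, Serpina1b and Serpina1c did not pass on the probe sets that name them alone. That a probe set names 1 copy rests on the annotation alone. Which copies any of the Serpina1 probe sets read, shared or not, cannot be told apart here. How far the human transcript reaches any of these probe sets was not tested. The fall on Serpina1d and Serpina1a did not pass after cyclic loess (-0.34, adjusted p = 0.108), after a further quantile normalization (-0.40, adjusted p = 0.0512), after centring on reference genes (-0.44, adjusted p = 0.0995), or without PiZ replicate 3 or any of the 3 wild-type arrays (adjusted p = 0.0683 to 0.101).

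Most Serpina1 signals were near the top of the array's range, and those of Serpina3 were not. The exception was the probe set of Serpina1e, Serpina1c and Serpina1b, which stood at ranks 1755 to 2345 in PiZ and 863 to 1084 in wild-type. Ranked from the brightest of the 22626 probe sets, Serpina1c stood at 5 to 6 in PiZ and 3 to 4 in wild-type, and the brighter Serpina1b probe set at 4 to 6 in PiZ and 8 to 10 in wild-type. The highest value on any array was 14.98. Of 50 probe sets with a wild-type mean above 14, 5 were serpins, and 16.0% of the 50 were called changed in either direction. The median size of the difference was 0.21 among these 50 and the widest fall 1.01, against a median of 0.45 and a fall of up to 4.37 for wild-type means between 10 and 12. Differences among these 50 were thus smaller than at wild-type means between 10 and 12. The dimmest probe sets also differed little, with a median size of 0.15 at means of 2 to 4 and 0.23 at 4 to 6. The widest fall is taken over 50 probe sets in one class and 1696 in the other, and a larger class reaches further. Rank within an array is brightness of a probe set, not abundance of a transcript.

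**Figure D3:**
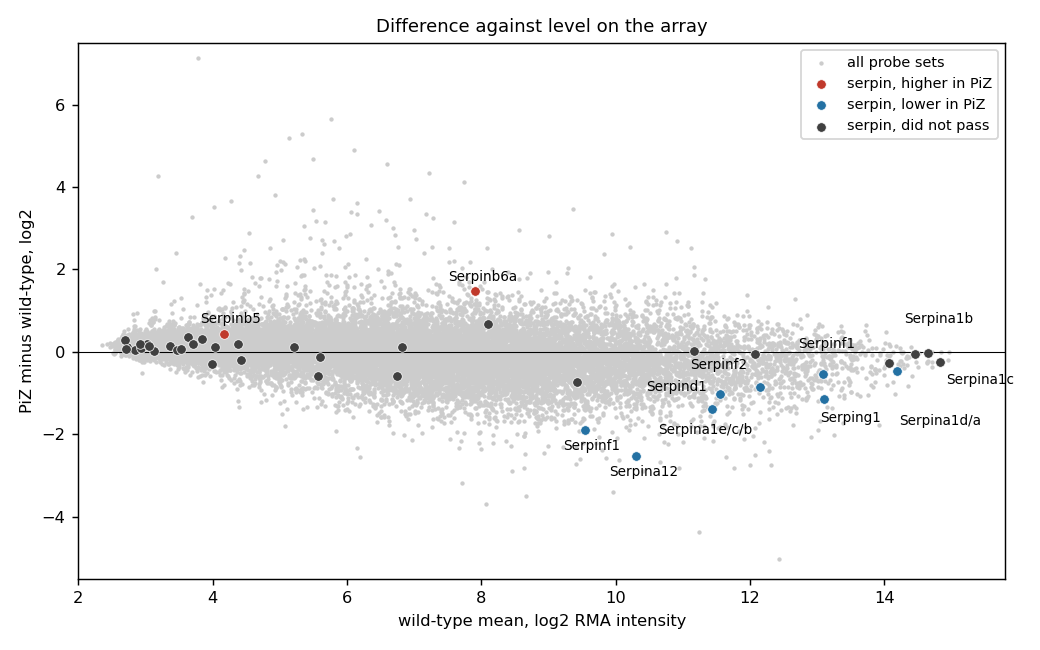
Difference between PiZ and wild-type (log2, vertical axis) against the wild-type mean (log2 RMA intensity, horizontal axis) for all 22626 probe sets in grey and the 42 serpin probe sets in colour. The cloud narrows above 14, where Serpina1b, Serpina1c and the Serpina1d and Serpina1a probe set lie, while Serpina12 falls by 2.53 from a wild-type mean of 10.31.

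Serpina3n, a mouse relative of antichymotrypsin and an acute phase gene, read 9.31, 8.61 and 8.20 in PiZ, against 9.26, 9.43 and 9.58 in wild-type. PiZ replicate 1 lay within the wild-type range and PiZ replicates 2 and 3 below it. The difference of -0.72 (SE 0.26, 95% interval -1.33 to -0.10) did not pass (adjusted p = 0.0941), and without PiZ replicate 1 it was -1.02 and passed (adjusted p = 0.00142). With the 3′ minus 5′ signal of the control transcripts in the model it was -0.15 (adjusted p = 0.748). Serpina3a, read at 4.16 in PiZ and 4.04 in wild-type, near the lower quartile of 4.36 over all probe sets, differed by 0.13 (SE 0.12), and by -0.01 after cyclic loess. Other Serpina3 genes were not analysed here.

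Serpina12, or vaspin, a serpin first described in fat tissue, had the widest difference of the 42 probe sets. It read 8.15, 7.92 and 7.26 in PiZ, against 10.65, 10.23 and 10.04 in wild-type. All PiZ arrays were lower than all wild-type arrays, 5.78-fold on average (-2.53, SE 0.25, adjusted p = 0.00189). The difference was -2.16 in PiZ replicate 1, with a mean of -2.72 over the other PiZ arrays, and the call held in all 17 alternatives. A dimmer Serpina12 probe set read 4.43, 5.10 and 5.43 in PiZ, against 5.78, 5.51 and 5.43 in wild-type. The groups just failed to overlap there, and its difference of -0.59 (SE 0.25, adjusted p = 0.13) did not pass. It was -1.15 in PiZ replicate 1, and it passed with the 3′ minus 5′ signal in the model (-1.10, adjusted p = 0.0252).

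The other bright clade A serpins showed no difference beyond their spread. Serpina6, corticosteroid-binding globulin, which carries glucocorticoids and inhibits no protease, read 11.47, 11.13 and 11.01 in PiZ, against 10.91, 11.13 and 11.48 in wild-type. Its difference of 0.03 (SE 0.19, 95% interval -0.40 to 0.47) turned to -0.10 without PiZ replicate 1. Serpina10, the protein Z-dependent inhibitor of coagulation factor X, read 12.19, 11.85 and 12.07 in PiZ, against 12.01, 12.10 and 12.11 in wild-type. Its difference was -0.04 (SE 0.12, 95% interval -0.33 to 0.25), and 0.09 after cyclic loess. The groups overlapped for both genes.

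Among inhibitors of coagulation, heparin cofactor II fell and antithrombin did not pass. Serpind1 encodes heparin cofactor II, an inhibitor of thrombin. It read 11.24, 10.21 and 10.12 in PiZ, against 11.64, 11.43 and 11.57 in wild-type. The groups did not overlap, and the 2.03-fold fall passed (-1.02, SE 0.28, adjusted p = 0.0445). The difference was -0.31 in PiZ replicate 1 and -1.38 over the other PiZ arrays, and it was -0.28 and did not pass (adjusted p = 0.252) when the model held the 3′ minus 5′ signal of the controls. It did not pass without PiZ replicate 2 or 3 or any of the 3 wild-type arrays either (adjusted p = 0.106 to 0.143). Serpinc1, antithrombin, which inhibits thrombin and factor X, read 14.02, 13.69 and 13.68 in PiZ, against 14.07, 14.06 and 14.06 in wild-type. PiZ replicate 1 lay 0.05 below the wild-type mean and replicates 2 and 3 lay 0.38 below it (difference -0.27, SE 0.13, 95% interval -0.56 to 0.03, adjusted p = 0.163). Without PiZ replicate 1 it passed (-0.38, adjusted p = 0.0131), and with the 3′ minus 5′ signal in the model it was -0.04 (adjusted p = 0.866).

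The clade F serpins fell on all 3 of their probe sets. Serpinf2, alpha-2 antiplasmin, the main inhibitor of plasmin, read 11.65, 11.17 and 11.08 in PiZ, against 12.27, 12.17 and 11.99 in wild-type. Every PiZ array was lower, 1.79-fold on average (-0.84, SE 0.17, adjusted p = 0.0168). Serpinf1 encodes pigment epithelium-derived factor, a secreted serpin that limits blood vessel growth and inhibits no protease. Its brighter probe set read 12.70, 12.40 and 12.57 in PiZ, against 13.11, 13.07 and 13.06 in wild-type (-0.53, SE 0.11, adjusted p = 0.0212). Its dimmer probe set read 9.04, 6.89 and 6.99 in PiZ, against 9.78, 9.22 and 9.61 in wild-type (-1.90, SE 0.54, adjusted p = 0.0473).

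The groups did not overlap on either Serpinf1 probe set, but their sizes parted. The brighter differed by -0.38 in PiZ replicate 1 and -0.60 over the other PiZ arrays, and the dimmer by -0.49 and -2.60. With the 3′ minus 5′ signal in the model the dimmer one was -0.40 (adjusted p = 0.104) and the brighter -0.37 (adjusted p = 0.101). Serpinf2 was -0.50 in that fit (adjusted p = 0.0839). Serpinf1 and Serpinf2 also lost their calls without any 1 of PiZ replicates 2 and 3 and the wild-type arrays, with adjusted p from 0.0527 to 0.156. The fit with the 3′ minus 5′ signal largely repeats PiZ replicate 1, in which Serpinf2 differed by -0.49. It cannot tell RNA quality from another difference between the PiZ mice, and the part of RNA quality in these falls was not tested.

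Serping1, the C1 inhibitor, blocks the C1 proteases of complement and also plasma kallikrein and factor XII. It read 12.39, 11.73 and 11.79 in PiZ, against 13.16, 13.06 and 13.09 in wild-type. All PiZ arrays were lower than all wild-type arrays, 2.19-fold on average (-1.13, SE 0.18, adjusted p = 0.00843). Its difference was -0.71 in PiZ replicate 1 and -1.34 over the other PiZ arrays, and the call held in all 17 alternatives.

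**Figure D4:**
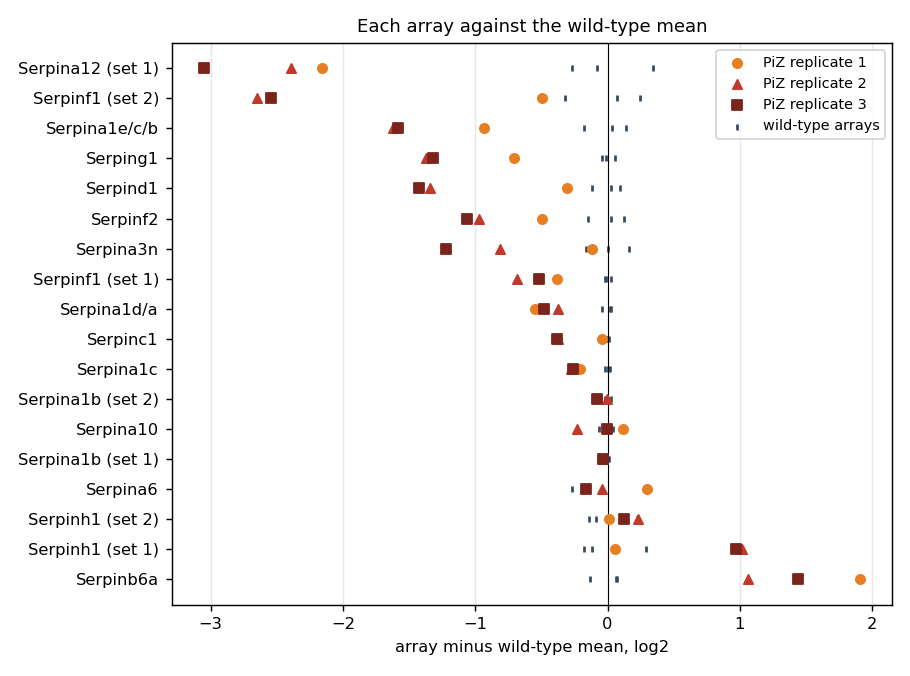
Difference of each array from the wild-type mean (log2, horizontal axis) for the 18 bright serpin probe sets, with a symbol for each PiZ array and ticks for the wild-type arrays. For Serpinf1 set 2, Serpind1 and Serpina3n, PiZ replicate 1 lies near wild-type (-0.49, -0.31 and -0.12) and PiZ replicates 2 and 3 far below, while for Serpina12 all 3 PiZ arrays lie more than 2 below.

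Serpinh1 encodes HSP47, a chaperone of the endoplasmic reticulum (ER) that helps collagen fold. Its brighter probe set read 8.15, 9.11 and 9.07 in PiZ, against 7.92, 8.39 and 7.98 in wild-type. PiZ replicate 1 lay within the wild-type range and replicates 2 and 3 above it, and the difference of 0.68 (SE 0.27, 95% interval 0.05 to 1.31) did not pass (adjusted p = 0.113). It passed without PiZ replicate 1 (0.99, adjusted p = 0.00143) and read -0.02 with the 3′ minus 5′ signal in the model. The dimmer probe set read 6.94 ± 0.11 in PiZ and 6.82 ± 0.20 in wild-type (SD, n = 3 each), a difference of 0.12 (SE 0.13), and of -0.04 with that term. Of the 8 markers of stellate cells and fibroblasts, which make collagen, 0 were called by limma and 1 had an unadjusted p below 0.05, with summed linear levels of 7100 to 10825 in PiZ and 7948 to 8866 in wild-type.

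Serpinb6a had the widest rise of the 42 probe sets. It encodes an intracellular inhibitor whose human counterpart binds cathepsin G. It read 9.82, 8.97 and 9.35 in PiZ, against 7.98, 7.78 and 7.97 in wild-type. All PiZ arrays were higher than all wild-type arrays, 2.77-fold on average (1.47, SE 0.21, adjusted p = 0.00556). It was 1.91 in PiZ replicate 1, with a mean of 1.25 over the other PiZ arrays, so that it was widest in the array that otherwise stood nearest to wild-type. The call held in all 17 alternatives. Its neighbours of the same subfamily, Serpinb6b (5.47 in PiZ, 5.59 in wild-type) and Serpinb6c (3.22 in PiZ, 3.02 in wild-type), did not pass, and were named after their values were seen.

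Serpinb5, or maspin, rose on 1 of its 3 probe sets, all of them dim. That probe set read 4.49, 4.57 and 4.73 in PiZ, against 4.14, 4.28 and 4.06 in wild-type (0.43, SE 0.12, adjusted p = 0.0425). The groups did not overlap, but the call was lost in 12 of 17 alternatives, with adjusted p = 0.0984 after cyclic loess and 0.0849 to 0.159 without PiZ replicate 2 or 3 or any of the wild-type arrays. The other Serpinb5 probe sets differed by 0.10 and 0.05. They turned to -0.02 and -0.07 after cyclic loess.

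Serpinb9, an inhibitor of granzyme B, read 7.13, 5.65 and 5.72 in PiZ, against 6.91, 6.71 and 6.62 in wild-type. PiZ replicate 1 lay above all wild-type arrays and PiZ replicates 2 and 3 below them (difference -0.58, SE 0.37, adjusted p = 0.29). The difference was -1.06 without PiZ replicate 1 (adjusted p = 0.000338), and 0.41 with the 3′ minus 5′ signal in the model (adjusted p = 0.166). Serpinb9 was described because it lay nearest to the brightness rule, after its values were seen.

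The remaining 18 serpin probe sets were dim and 0 were called by limma, with 1 at an unadjusted p below 0.05. They named 17 genes of clades A, B and I, among them Serpina5 (protein C inhibitor), Serpinb2, Serpinb8 and neuroserpin Serpini1. Their means over all arrays lay between 2.74 and 5.53, and their differences between -0.29 and 0.35. The smallest adjusted p was 0.0874. With no detection calls in the data, such values cannot be told from background. The probe set shared by Serpinb9h, Serpinb9g, Serpinb9e and Serpinb9f was among them, at 4.16 in PiZ and 3.85 in wild-type. Clade E serpins were not analysed here.

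Some leukocyte markers were higher in PiZ as well, and leukocytes express clade B serpins. Of 19 clade B probe sets 2 were higher (10.5%) and 0 lower, where 8.93% of all probe sets were higher and 10.2% lower. Of 7 measured neutrophil markers 3 were higher in PiZ, namely S100a8, S100a9 and Mmp8, with summed linear levels of 537 to 734 in PiZ and 157 to 216 in wild-type. The granule genes Elane and Mpo read 5.15 and 3.94 in PiZ, against 5.08 and 3.89 in wild-type, and did not pass. Ngp and Camp, at 4.63 and 4.27 in PiZ and 4.39 and 4.08 in wild-type, did not pass either. All of these read dim, and neutrophil number was not tested. Of 8 macrophage and Kupffer cell markers 3 were higher, with sums of 8979 to 10693 in PiZ and 7490 to 7769 in wild-type. Of 7 T and NK cell markers 0 were called by limma, with 1 at an unadjusted p below 0.05. The part of these cells in the Serpinb6a rise was not tested.

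Most coagulation and contact proteases, among them targets of plasma serpins, were lower in PiZ. Each gene is represented here by its brightest single-gene probe set, and 11.2% of 12393 genes were lower and 9.99% higher by that reading. Of 8 coagulation and contact proteases 6 were lower and 0 higher, with a median of -0.51 against 0.08 for all genes. The median was -0.34 in PiZ replicate 1 and -0.63 over the other PiZ arrays, whose 3′ minus 5′ signal was larger. F11 (-1.35, SE 0.14) and plasma prekallikrein Klkb1 (11.45 in PiZ and 12.45 in wild-type) fell most, and thrombin's gene F2 fell by 0.49 (SE 0.13) and F10 by 0.64 (SE 0.15). The other 2 probe sets of F10 differed less, the range being -0.64 to 0.03. The wild-type means of these 8 genes ran from 9.38 (F11) to 13.79 (F2). At wild-type means of 8 to 14, 21.0% to 23.9% of all probe sets were lower, more than the 11.2% of all genes. Most genes of the complement and cofactor lists below were about as bright.

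Of 6 measured complement protease genes 5 were lower and 0 higher (median -0.92). They were C1ra, C1s1, Masp1 and Masp2 of the C1 and lectin pathways, with Cfi and Cfb, which belong to neither. Masp1 did not pass (-0.26, SE 0.10). The C1 proteases C1s1 and C1ra, the classical targets of Serping1, fell by 1.40 (SE 0.14) and 1.11 (SE 0.16), Cfb by 1.24 (SE 0.22) and Cfi by 0.72 (SE 0.13). The median of the list was -0.72 in PiZ replicate 1 and -1.05 over the other PiZ arrays, where Serping1 differed by -0.71 and -1.34. An inhibitor and its target proteases were thus lower in the same livers.

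Of 10 measured coagulation cofactors and fibrin genes 7 were lower and 0 higher (median -0.59, with -0.34 in PiZ replicate 1 and -0.75 over the other PiZ arrays), among them F5 (-0.83, SE 0.12), fibrinogen Fga (-0.64, SE 0.12) and Fgb (-0.83, SE 0.18), and vitronectin Vtn (-0.54, SE 0.11; -1.17 on its dimmer probe set). In a list of plasminogen system genes with Hgfac and Lrp1 added, 3 of 6 were lower and 0 higher (median -0.20). Of the plasminogen system genes themselves only Plg was lower. Plasminogen Plg, whose active form is the target of Serpinf2, fell by 0.74 (SE 0.17; -0.36 in PiZ replicate 1 and -0.93 over the others), Hgfac by 0.74 (SE 0.12), and Lrp1, a receptor that clears serpin and protease complexes, by 1.08 (SE 0.11). The activators Plat and Plau, at 4.39 and 4.36 in PiZ and 4.01 and 4.02 in wild-type, did not pass. Neither did the receptor Plaur, at 5.95 in PiZ and 5.59 in wild-type.

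**Figure D5:**
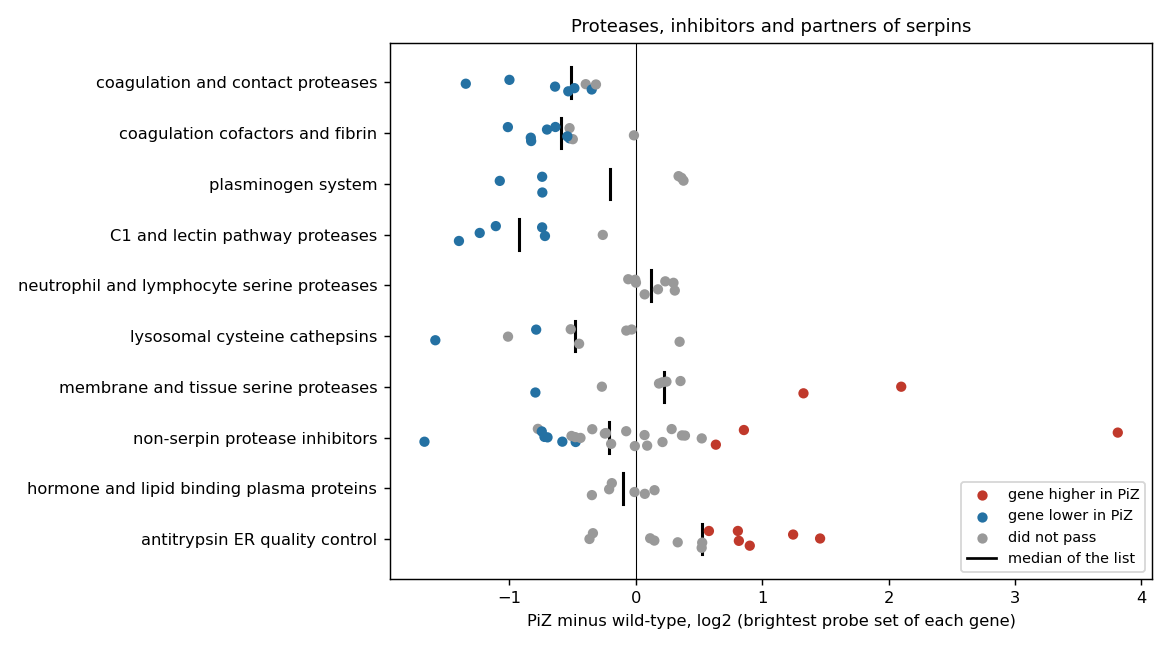
Difference between PiZ and wild-type (log2, horizontal axis) of genes in 10 lists of serpin targets and partners, 1 point per gene from its brightest probe set, with a black line at the median of each list. Points for coagulation proteases lie below 0 throughout. So do those of the list labelled C1 and lectin pathway proteases, which also holds Cfi and Cfb. Points for leukocyte serine proteases, which read dim, lie near 0.

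Proteases of leukocytes and tissue gave few calls, where 9.99% of all genes were higher and 11.2% lower. Of 8 neutrophil and lymphocyte serine proteases 0 were called by limma and 2 had an unadjusted p below 0.05 (median 0.12). They read dim, with wild-type means from 3.10 (Gzmc) to 6.18 (Prtn3). At wild-type means of 2 to 4 and of 4 to 6, 0.304% and 3.18% of all probe sets were lower. A lack of lower calls in this list thus says little. Targets of Serpina1, Serpina3n, Serpinb6a and Serpinb9 are among these 8 genes, but not every member is one. Of 8 lysosomal cysteine cathepsins 2 were lower, Ctsf (-1.59, SE 0.43) and Ctsh (-0.79, SE 0.21). Ctsf differed by -0.57 in PiZ replicate 1 and -2.09 over the other PiZ arrays, Ctsh by -0.30 and -1.03, and the list's median by -0.12 and -0.78. The part of RNA quality in these list values was not tested. Among 8 membrane and tissue serine proteases Tmprss2 rose by 2.10 (SE 0.15; 0.96 on its dimmer probe set) and prostasin Prss8 by 1.33 (SE 0.14), and Prss23 fell by 0.79 (SE 0.16).

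Protease inhibitors of other families went both ways. Of 26 measured genes 3 were higher and 6 lower (median -0.22), where 9.99% of all genes were higher and 11.2% lower. Most of the 6 were bright. At wild-type means of 10 to 12 and of 12 to 14, 23.9% and 23.4% of all probe sets were lower. These counts therefore do not set the list apart. The trypsin inhibitor Spink1 rose by 3.81 (SE 0.40). Cystatin Cst6 rose by 0.63 (SE 0.11) but was dim, at 4.84 in PiZ and 4.20 in wild-type. Mug1, a relative of alpha-2 macroglobulin, fell by 1.67 (SE 0.31) and the metalloprotease inhibitor Reck by 0.74 (SE 0.13). Of 6 measured carrier proteins of plasma 0 were called by limma, with 1 at an unadjusted p below 0.05 (median -0.10), and some of these, such as Alb and Ttr, sit at the top of the array's range.

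Genes that handle antitrypsin in the ER were higher where they changed. Of 13 measured 6 were higher and 0 lower (median 0.53), where 9.99% of all genes were higher and 11.2% lower (median 0.08). Canx and Edem3 differed by -0.37 and -0.34 on their brightest probe sets and did not pass. The 3 probe sets of Canx ranged from -0.37 to 0.29. The ubiquitin ligase Syvn1 (Hrd1), which helps to clear misfolded proteins, rose by 1.46 (SE 0.13), the cargo receptor Surf4 by 1.24 (SE 0.12; 0.35 at the least over its 5 probe sets), calreticulin Calr by 0.81 (SE 0.13) and the chaperone Hsp90b1 by 0.58 (SE 0.11). The list's median was 0.64 in PiZ replicate 1 and 0.56 over the other PiZ arrays. The cargo receptor Lman1, which carries antitrypsin to the Golgi, differed by 0.11 (SE 0.14) on its brightest probe set and did not pass. Its 4 probe sets ranged from -0.07 to 0.52.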

How the data were processed

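Per the submitters' processing notes, the authors made the deposited log2 intensities with the affy package and RMA, which corrects background, equalises arrays by quantiles and summarises probes. A shift shared by most genes would thus be removed. No version or chip definition is given in the sources used here. That the scale is log2 follows from RMA and from a highest value of 14.98. Of 22690 probe sets 64 controls were left out. The platform annotation named 1 gene on 20380 probe sets, several on 691 and none on 1555, and all 36 serpin gene identifiers matched the RefSeq table. No build is named for the array, so coordinates are those of the RefSeq promoter table.

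The comparison of PiZ with wild-type used lmFit and eBayes of limma 3.58.1 (R 4.3.3), two-sided and without covariates, and p-values were adjusted by Benjamini-Hochberg over 22626 probe sets. The fit was tested on simulated data. Intervals are limma's 95% intervals. Replicates are biological according to the labels, and 3 arrays per group limit the precision. Every serpin probe set that passed, every Serpina1 and Serpina3 probe set, every one above the median in both groups, and other probe sets of these genes were described, and up to 4 called members per partner list. Members and lists were chosen with earlier results of these data known.

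Alternatives were the brightest probe set per gene, a filter on dim probe sets, cyclic loess, quantile normalization repeated, centring on 8 reference genes, trended robust variances, array weights, the replicate number as a block, the mean 3′ minus 5′ signal of the Gapdh and beta-actin controls as a covariate, each array left out, PiZ replicate 1 alone, and a threshold of 0.01. Figures used Python 3.11.15, pandas 2.3.3 and matplotlib 3.10.9.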

Additional observations from a re-analysis of the deposited data

How the results depend on the processing

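Of the 10 called serpin probe sets, 4 (Serpina12, Serping1, Serpinb6a and the one shared by Serpina1e, Serpina1c and Serpina1b) kept direction and call in all 17 alternatives, and 6 lost the call in at least 1.

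The counts moved with the fit. All probe sets called changed were 4331 as reported, 10986 with array weights, 2812 with the 3′ minus 5′ control signal as a covariate and 1133 at an adjusted p below 0.01. Leaving out 1 array gave 1239 to 10547. Serpin probe sets higher in PiZ numbered 2 as reported, 6 with array weights, and 1 with the covariate, in PiZ replicate 1 alone, at the stricter threshold, after cyclic loess, after centring on reference genes and after a further quantile normalization. Leaving out 1 array gave 1 to 6. Serpin probe sets lower in PiZ numbered 8 as reported, 12 with array weights, 5 with the covariate, 5 in PiZ replicate 1 alone and 3 at the stricter threshold. Leaving out 1 array gave 3 to 11, the highest without PiZ replicate 1, and 3 without PiZ replicate 3 or any wild-type array. With PiZ replicate 1 alone, 1 array is assumed to vary like the wild-type arrays. The cause was not tested, though fewer arrays alone lower such counts.

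The serpin median of 0.04 read -0.2575 without dim probe sets, -0.0320 after cyclic loess, -0.0078 after a further quantile normalization, 0.0663 after centring on reference genes, 0.0099 with array weights, -0.0424 with the covariate, -0.0274 in PiZ replicate 1 alone, and 0.0010 to 0.0551 without 1 array. Centring on reference genes gave 1333 of 3571 changed probe sets higher, against 2020 of 4331 as reported.

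Same-numbered arrays of PiZ and wild-type deviated together at correlations of 0.30, 0.30 and -0.04. Correlations of differently numbered arrays were not computed, so these values cannot decide whether the arrays were paired. The labels name no pairs, and the numbers were not taken as pairs. With the replicate block, 2 serpin probe sets were higher and 8 lower, of 5189 changed in all. Serpinb5 lost its call there (adjusted p = 0.062) and Serpinh1 gained one (0.68, adjusted p = 0.0391).

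Signs turned only for differences that had not passed. Serpina10 read 0.0911 after cyclic loess, 0.0795 after a further quantile normalization, 0.1233 with the covariate, 0.1138 in PiZ replicate 1 alone and -0.1167 to 0.0547 without 1 array. The Serpina1b probe sets read 0.0890 and 0.0706 after cyclic loess, and 0.1123 and 0.0445 after a further quantile normalization. Serpina3a read -0.0073 and -0.0044 under those settings. The dimmer Serpinb5 probe sets read -0.0666 and -0.0184 after cyclic loess, one of them -0.0317 after a further quantile normalization and the other -0.0248 to 0.1757 without 1 array. Serpina6 read -0.1125 with array weights and -0.1003 to 0.1871 without 1 array. With the covariate the Serpinh1 probe sets read -0.0448 and -0.0221 and Serpinb9 0.4145, and Serpinb9 read 0.3866 in PiZ replicate 1 alone. The data hold no detection calls, which limits the dim serpins.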
